A study of Saccharomyces cerevisiae with 15 samples.

Results

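The ribosome load of each mRNA was measured in budding yeast growing on glucose. The strain was YWG25, of the Sigma1278b background, grown in the rich glucose medium YPD at 30 °C to an optical density near 0.7. Of the 15 libraries of the study, 6 were chosen by their titles: 3 ribosome footprint libraries and 3 RNA libraries of wild-type (WT) cells with glucose (+GLU). All 6 carry the same treatment label, 100 µg/ml of cycloheximide before harvest by centrifugation, so no drug effect can be told apart within them. Footprints of about 28 nt came from single ribosomes released by RNase I. Poly(A) RNA was selected on oligo-dT cellulose for RNA replicate 1 and on DynaBeads for RNA replicates 2 and 3. The 6 cycloheximide libraries of cells without glucose (-GLU) and a further +GLU footprint library serve only as points of comparison. That library is titled as harvested fast with no cycloheximide, though its protocol label still names the drug. Subtraction of ribosomal RNA is described for 5 of the 6 +GLU libraries, all but RNA replicate 3. The study asks how translation adapts when glucose runs out. Here the question is which mRNAs carried many or few ribosomes for their length during rapid growth.

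Ribosomes protect the stretch of mRNA they sit on, so sequencing these stretches counts ribosomes gene by gene. Dividing footprints by RNA of the same gene gives its translational efficiency, a measure of how densely ribosomes cover an average copy of that mRNA. Both counts grow with coding length, so at equal efficiency a longer mRNA carries more ribosomes. In yeast, efficiency is set mostly by how often ribosomes start at the start codon, and it is known to fall where short upstream open reading frames (uORFs) or RNA structure hold ribosomes back. It is a relative measure: a footprint shows where a ribosome was, not how fast it moved.

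The +GLU footprint libraries held 4159880, 8680468 and 6509688 counts and the RNA libraries 12560502, 2840314 and 2423486. A floor of 3 counts lay between 0.239 and 1.24 CPM (counts scaled to a library of 1000000). Marker sums and values of -GLU cells use this plain CPM. CPM values of single +GLU genes are also divided by a TMM factor, which centres the middle of the distribution. That factor was 0.817, 0.735 and 0.732 in the footprint libraries and 1.5, 1.21 and 1.255 in the RNA libraries. It raises footprint values and lowers RNA values, and overlap between footprint and RNA values was judged on that scale. Across genes, Spearman correlations were 0.981 to 0.992 among footprint libraries, 0.98 between the DynaBeads RNA libraries, and 0.918 and 0.939 between these and RNA replicate 1. Nothing in the labels ties the replicates to different cultures; the p-values therefore reflect sample-to-sample spread that could be purely technical. Strain and growth state were checked with markers. The 7 markers of a-cells summed to 1833, 1711 and 1714 CPM in footprints, against 3722, 2305 and 2622 CPM in RNA. The 4 alpha-cell markers summed to at most 12.5 CPM in footprints and 80.9 CPM in RNA, with the pheromone gene MF(ALPHA)2 at 0 counts in every footprint library. The 8 markers of glucose exhaustion summed to at most 20.6 CPM in footprints and 77.4 CPM in RNA of +GLU cells, against at least 14502 CPM in footprints and 17259 CPM in RNA of -GLU cells.

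The reference sequence around the start codon is shown for the mRNAs that mark the ends of the range and for the best known cases of translational control. Each line runs from 12 bases before the start codon to base 6 of the coding sequence, in the RefSeq R64 genome of the strain S288C, with the start codon in capitals. The strain sequenced here may differ from it. The first 6 have the highest and the next 6 the lowest efficiency among genes that were called, did not overlap between footprint and RNA libraries and averaged at least 20 CPM, and the last 5 are HAC1, GCN4, HOL1, the leader reading frame YOR302W and CPA1, the gene downstream of it.
PDC1: aaatcaatcaaaATGtct
RRG9: ttagcacttggcATGaac
CDC19: aacatcatcacaATGtct
SSC1: atacgcaccaagATGctt
BMH2: acaacaaaaaaaATGtcc
SSA2: aatatttatacaATGtct
YOL029C: aataaagatgccATGaaa
YIR016W: ttgtggtcggtaATGagt
ISC10: cacagtgacaaaATGgat
YCR024C-B: aattagactactATGtgt
MTC7: catgggatataaATGaaa
YER186C: gtaaacagtatcATGctg
HAC1: acaaccgccactATGgaa
GCN4: aatacaaataaaATGtcc
HOL1: aatttttaacagATGgac
YOR302W: aaaaaacattatATGttt
CPA1: aaaatatttcaaATGtcc
An A stands at position -3, counted back from the A of the start codon, in 5 of the first 6 and in 3 of the next 6. Within 50 bases upstream, a further ATG lies in none of the first 6 and in 4 of the next 6 (YOL029C, YCR024C-B, MTC7 and YER186C).

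Efficiency differed widely between mRNAs of the same cells. Of 5703 genes analysed, 5368 had enough counts to test and 335 did not. Footprint and RNA levels differed for 2980 genes (55.5% of those tested; edgeR quasi-likelihood test, Benjamini-Hochberg adjusted p under 0.05), of which 1432 were higher in footprints (26.7%) and 1548 lower (28.8%). With an added size rule of at least 2-fold, 744 genes were higher (13.9%), called high-efficiency below, and 887 lower (16.5%), called low-efficiency. The 3 footprint and 3 RNA values did not overlap in 3341 genes (62.2%), among them 2905 of the 2980 called. From the 5th to the 95th percentile, log2 efficiency ran from -2.24 to 1.52, a 13.6-fold range, with a median of -0.04. Footprint density per length was more spread than RNA: the SD across genes of log2(RPKM + 0.1) was 2.56 to 2.66 in footprint libraries and 1.71 to 2.03 in RNA libraries, lowest in RNA replicate 1. RPKM is counts per kilobase of counted length, scaled to library size as in plain CPM, without the TMM factors.

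In such bulk samples fewer cells with an mRNA and less of it per cell cannot be told apart. All values are relative to the bulk of genes in these libraries, because the TMM scaling used here centres the middle of the distribution. Scaling each library by its total count instead moved the median log2 value by -0.80, leaving 414 genes called higher and 3301 lower. Values between 0 and about 0.80 change sign with it. The plot of efficiency against mRNA level shows the 2 classes.

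**Figure D1:**
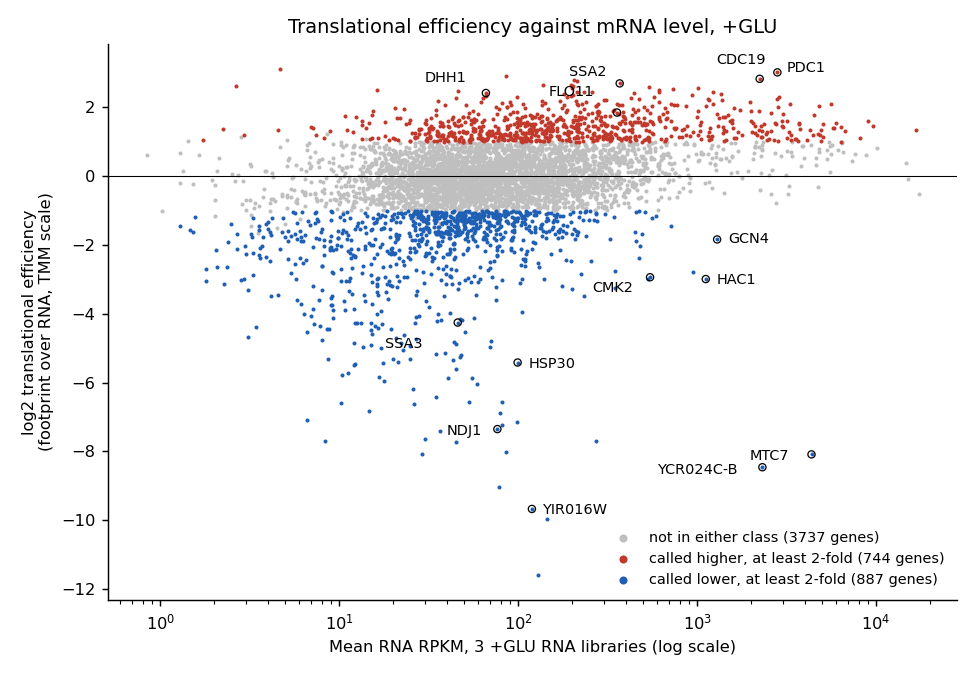
Log2 translational efficiency (footprint over RNA, TMM scale; vertical axis) of the 5368 genes tested against mean RNA RPKM of the 3 +GLU RNA libraries (log scale). Red points are the 744 high-efficiency and blue points the 887 low-efficiency genes; PDC1 at 3.02 lies at the top among abundant mRNAs, while MTC7 and YCR024C-B lie below -8 despite high RNA. On total counts the median moves by -0.80.

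Enzymes of glycolysis and fermentation, which break down glucose to ethanol, had the highest median efficiency of the 39 gene lists examined. Of 21 members tested, 18 were higher and 0 lower, where 26.7% of all genes were higher, and 17 passed the 2-fold rule. Their median log2 efficiency was 1.94, against -0.04 over all genes. The list took 9.48, 11.5 and 12.1% of footprint counts, against 3.22, 5.27 and 5.27% of RNA counts. The share was higher in each footprint library than in any RNA library (exact permutation test, 2-sided p = 0.1, the smallest that 3 against 3 libraries can give). Every step from glucose to ethanol had at least 1 enzyme called higher.

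PDC1, pyruvate decarboxylase, had 25395, 30781 and 32198 CPM in footprints, against 2503, 4613 and 3808 CPM in RNA. Its log2 efficiency of 3.02 ± 0.39 (SE) was the highest of the genes named by rule (edgeR adjusted p = 0.000106). CDC19, pyruvate kinase, had 12998, 19678 and 21458 CPM in footprints, against 2151, 2432 and 3038 CPM in RNA (log2 2.83 ± 0.35). In both genes the footprint libraries all lay above the RNA libraries. TDH2, a glyceraldehyde-3-phosphate dehydrogenase, had 1646, 2618 and 3138 CPM in footprints, against 255, 438 and 539 CPM in RNA (log2 2.59 ± 0.34); it shares long stretches with its sister gene TDH3 (log2 2.10 ± 0.38), so the split between them is uncertain. Hexokinase HXK2 reached 2.41, phosphoglycerate kinase PGK1 2.25, the phosphofructokinase subunits PFK1 and PFK2 2.02 and 2.16, and glucose-6-phosphate isomerase PGI1 2.08 on the log2 scale. Alcohol dehydrogenase ADH1 (1.23) and triosephosphate isomerase TPI1 (1.01) were the lowest of the abundant enzymes called. The minor isoenzymes PDC6 (1.03), PYK2 (0.62) and TDH1 (-0.03) were not called.

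The respiratory enzymes were also heavily loaded. In the tricarboxylic acid cycle 18 of 19 genes were higher and 0 lower, with a median of 1.47, and in nuclear-encoded oxidative phosphorylation 31 of 36 were higher and 1 lower, with a median of 1.38. KGD1, a subunit of 2-oxoglutarate dehydrogenase, had 265, 316 and 318 CPM in footprints, against 91.1, 63.2 and 81.6 CPM in RNA (log2 1.92 ± 0.18). ATP15, the epsilon subunit of the mitochondrial ATP synthase, had 126, 98.8 and 136 CPM in footprints, against 23, 26.8 and 24.3 CPM in RNA (log2 2.29 ± 0.18). Footprints exceeded RNA in every library for both. Among the exceptions, COX5B, the cytochrome oxidase subunit kept for low oxygen, was lower at -1.21 while its partner isoform COX5A was higher at 1.30, and the citrate synthase CIT1 was not called (0.16). COX5B lost its call without footprint replicate 1 (log2 -0.88, edgeR adjusted p = 0.0642), without footprint replicate 2 (-1.07, adjusted p = 0.0895) or without RNA replicate 3 (-1.18, adjusted p = 0.0603). Mitochondrial ribosomal proteins, which translate the few mRNAs that mitochondria encode themselves, had 29 higher and 2 lower of 72; their median of 0.43 turned to -0.35 on total counts.

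Chaperones, which fold proteins and keep them folded, had 22 higher and 2 lower of 29, with a median of 1.41. They took 2.33, 2.29 and 2.21% of footprints, against 0.938, 1.26 and 1.2% of RNA. SSC1, the mitochondrial Hsp70, had 1669, 2403 and 2300.0 CPM in footprints, against 257, 309 and 349 CPM in RNA (log2 2.80 ± 0.25; edgeR adjusted p = 1.42e-05). SSA2, a constitutive cytosolic Hsp70, had 3320.3, 3637 and 3697 CPM in footprints, against 303, 723 and 619.9 CPM in RNA (log2 2.70 ± 0.33). STI1, which links Hsp70 to Hsp90, had 1002, 1219 and 1219 CPM in footprints, against 145, 219.8 and 189 CPM in RNA (log2 2.64 ± 0.22). Footprints lay above RNA in every library for all 3, and the Hsp90 genes HSC82 and HSP82 (2.05 and 2.01) and the chaperonin gene HSP60 (2.45) did likewise on average. The Hsp70 genes induced by stress stood at the other end of the same family. SSA3 had 2.94, 4.23 and 3.15 CPM in footprints, against 61.5, 77.1 and 64.8 CPM in RNA, a log2 efficiency of -4.26 ± 0.24 (edgeR adjusted p = 2.22e-06), and SSA4 stood at -2.70 ± 0.20. The plot of levels by library shows the contrast between SSA2 and SSA3.

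**Figure D2:**
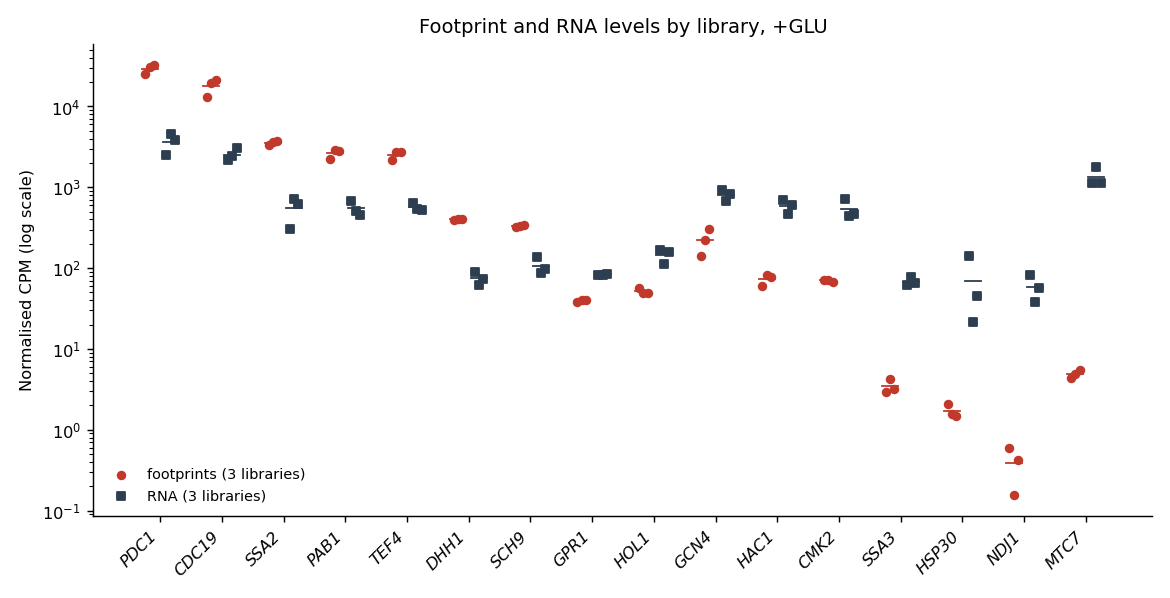
Normalised CPM (log scale) of 16 genes in the 3 footprint (red circles, left) and 3 RNA libraries (dark squares, right) of +GLU cells; short lines are means. PDC1, CDC19, SSA2, PAB1, TEF4, DHH1 and SCH9 have more footprints than RNA in every library, and the other 9 have fewer.

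Most genes of the translation apparatus were higher in footprints. All 21 cytosolic tRNA synthetases, which load amino acids onto tRNA, were higher (median 1.12), from GUS1 at 1.92 to HTS1 at 0.56; HTS1 stood at -0.21 on total counts and lost its call without footprint replicate 2 (log2 0.50, edgeR adjusted p = 0.156), footprint replicate 3 (0.51, adjusted p = 0.144), RNA replicate 1 (0.34, adjusted p = 0.0758) or RNA replicate 3 (0.60, adjusted p = 0.0863). Elongation and termination factors had 10 higher and 1 lower of 14 (median 1.31). TEF4, a subunit of the factor that recharges eEF1A, had 2166, 2734 and 2697 CPM in footprints, against 631, 543 and 528 CPM in RNA (log2 2.16 ± 0.23). HEF3, a minor form of elongation factor 3, was lower at -1.03 ± 0.23, against 1.54 ± 0.33 for the main form YEF3. Initiation factors had 21 higher and 1 lower of 30 (median 0.93). PAB1, the poly(A)-binding protein, had 2214, 2916 and 2798 CPM in footprints, against 682, 511 and 459 CPM in RNA (log2 2.26 ± 0.25), with every footprint value above every RNA value. The helicase DED1 reached 2.09 and the eIF2 alpha subunit SUI2 1.84, whereas GCN3, the eIF2B alpha subunit, was the lowest at -0.65 ± 0.16.

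Cytosolic ribosomal proteins had 102 higher and 1 lower of 135 tested, with a median of 1.07; 79 passed the 2-fold rule. The size of this value rests on the RNA preparation. It was 0.81 against the DynaBeads RNA alone and 1.72 against the cellulose RNA alone. The list made up 24.4, 22.1 and 21.8% of footprint counts, against 13.8, 22.2 and 20.3% of RNA counts, so RNA replicate 1 stood apart and the groups overlapped (exact permutation test, 2-sided p = 0.3). Members ranged from RPS11B, with 2004, 1991 and 2310.1 CPM in footprints, against 296, 400.3 and 367 CPM in RNA (log2 2.57 ± 0.22), to RPS12, with 4197, 3611 and 3892 CPM in footprints, against 3111, 6874 and 6784 CPM in RNA (log2 -0.52 ± 0.33, not called). RPS12 became a call without RNA replicate 1 (log2 -0.84, edgeR adjusted p = 3.81e-04). Only RPL22B was called lower (-0.48 ± 0.16). Most ribosomal proteins come from paired genes with like sequences, and summing the copies before the fit left the list median within the spread between replicates. The SD of the median over same-numbered footprint and RNA libraries was 0.51 for this list, so only a large shift would have shown. The 2 untested members, RPL41A and RPL41B, differ at 1 base and had 4417 and 4289 counts in RNA replicate 1 but 0 in every other +GLU library. The sources used here do not state how reads matching both copies were counted.

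The same limit bears on the elongation factors. The genes of elongation factor 2, EFT1 and EFT2, differ at 4 of 2529 coding bases in the reference, and EFT1 was listed with 147, 518 and 385 footprint counts, against 402, 65 and 65 RNA counts. TEF1 and TEF2, which encode eEF1A, differ at 2 of 1377 bases, and HXT6 and HXT7 at 3 of 1713. HXT7 had at most 3 counts in any +GLU library while HXT6 had 59 to 834. For such pairs the level of either copy is uncertain, and so is a comparison with other genes.

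Ribosome biogenesis factors, which assemble ribosomes in the nucleolus, stood near the middle of the range. They had 20 higher and 19 lower of 99, with a median of -0.03 (0.12 against cellulose RNA), and took 2.25, 2.3 and 2% of footprints, against 3.56, 3.58 and 3.33% of RNA. Members ran from the helicase HAS1, with 414, 492 and 407 CPM in footprints, against 169.6, 175 and 173 CPM in RNA (log2 1.34 ± 0.16), to IPI1, with 66.2, 54.9 and 52.3 CPM in footprints, against 107, 149 and 116 CPM in RNA (log2 -1.10 ± 0.18). Only 2 members passed the 2-fold rule upward and 1 downward. The difference between this list and the ribosomal proteins was not tested. Factors of mRNA decay and translational repression had 23 higher and 2 lower of 38, with a median of 0.72 that turned to -0.10 on total counts. DHH1, a helicase of mRNA decay, had 389, 399.6 and 410.3 CPM in footprints, against 88.4, 61.1 and 73.7 CPM in RNA (log2 2.42 ± 0.18), and the RNA-binding protein gene PUB1 reached 2.33. NMD2 and UPF3, of nonsense-mediated decay, were the 2 that were lower (-1.35 and -0.80).

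Biosynthetic pathways parted ways. Amino acid biosynthesis had 43 higher and 3 lower of 62 (median 1.06). ILV6, the regulatory subunit of acetolactate synthase in branched-chain synthesis, had 572, 937 and 1003 CPM in footprints, against 173, 177 and 232 CPM in RNA (log2 2.11 ± 0.25), and threonine synthase THR4 reached 2.06. ARO9, an aminotransferase of aromatic amino acid breakdown, had 31.2, 14.4 and 30.7 CPM in footprints, against 235, 73.9 and 122 CPM in RNA and was the lowest of the list (log2 -2.54 ± 0.41). Purine synthesis had 3 higher and 6 lower of 13 (median -0.27). ADE17, which catalyses the last steps to inosine monophosphate, had 50.6, 58 and 95.5 CPM in footprints, against 593, 329.8 and 448 CPM in RNA (log2 -2.75 ± 0.29; edgeR adjusted p = 3.43e-05), and ADE2 (-1.32), ADE13 (-1.17), ADE12 (-1.09), ADE1 (-1.03) and ADE8 (-0.80) were lower too. All footprint values of ADE17 lay below all RNA values. IMD3 (1.62) and GUA1 (1.09), of the branch to guanine nucleotides, were higher, as was ADE3 (0.75), of folate metabolism, although a value below about 0.80 changes sign on total counts. Ergosterol synthesis had 13 higher and 1 lower of 23, with a median of 0.56 that turned to -0.23 on total counts, led by the HMG-CoA synthase ERG13 at 1.98 ± 0.26.

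Surface and secretory proteins were mixed. Cell wall proteins had 22 higher and 3 lower of 34 (median 0.95). CCW12, a major mannoprotein, had the highest footprint density of all genes, a mean RPKM of 24950.5 in footprints, against 16614 in RNA. The 3 genes called lower were TIR4 (-4.28 ± 0.41), SPI1 (-3.07) and TIR2 (-3.06), and their relative TIR1, an anaerobically induced mannoprotein, was the highest of the list (log2 2.50 ± 0.23). FLO11, the adhesin that Sigma1278b cells need for filamentous growth, had 2967, 3691 and 3838 CPM in footprints, against 1049.7, 855 and 1008 CPM in RNA (log2 1.85 ± 0.24), with all footprint values above all RNA values. The efficiency was 0.30 with the footprint library without cycloheximide. The other adhesin genes of its list split, with FLO10 higher at 1.21 and FLO5 lower at -4.67. Vesicle coats had 12 higher and 0 lower of 14 (median 0.95), led by the COPII coat gene SEC31 at 2.26 ± 0.19. PMA1, the plasma membrane proton pump, had 9049, 11668 and 11263 CPM in footprints, against 3276, 2519 and 3479.6 CPM in RNA (log2 1.79 ± 0.30).

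Regulators as groups sat at the middle of the range. Transcription factors had 30 higher and 22 lower of 106 (median -0.02) and protein kinases 15 higher and 23 lower of 92 (median -0.04). Both medians changed sign with the RNA preparation, for transcription factors 0.09 against DynaBeads RNA and -0.22 against cellulose RNA and for kinases 0.06 against DynaBeads RNA and -0.30 against cellulose RNA. The spread within them was wide. TYE7, an activator of glycolytic genes, stood at 1.98 ± 0.34, and MIG1, the glucose repressor, at 1.77. SCH9, a growth-promoting kinase, was the highest kinase, with 321, 333 and 342 CPM in footprints, against 136, 87.3 and 97.1 CPM in RNA (log2 1.63 ± 0.19). CMK2, a calmodulin-dependent kinase, was the lowest, with 70.9, 72.1 and 67.8 CPM in footprints, against 716, 435 and 465 CPM in RNA (log2 -2.94 ± 0.22; edgeR adjusted p = 7.45e-06). In the protein kinase A and Ras pathway, 4 higher and 6 lower of 19 were called. The cyclase-associated protein SRV2 (2.16 ± 0.17) and the inhibitory subunit BCY1 (1.65) were higher, along with the transcription factors MSN2 and MSN4 (1.32 and 1.30). The glucose receptor GPR1 (-1.08), its G protein GPA2 (-1.02) and the Ras inhibitors IRA1 and IRA2 (-0.62 and -0.92) were lower, as were PDE1 and YAK1, and TPK2 and TPK3, which encode catalytic subunits, were not called.

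By list medians at the main filter, glucose-repressed, stress and sporulation genes had few footprints for the RNA they showed. A gene can pass that filter on RNA counts alone, which favours low values among scarce mRNAs. Gluconeogenesis and the glyoxylate cycle had 3 higher and 11 lower of 18 (median -1.47), where 28.8% of all genes were lower. With a minimum count of 50 in place of 10, 13 of the 18 were tested and their median was 0.019. ICL1, isocitrate lyase, had 1.18, 1.88 and 1.68 CPM in footprints, against 12.3, 15.4 and 13.5 CPM in RNA (log2 -3.05 ± 0.33). CIT2, the peroxisomal citrate synthase, stood at -2.80 although its mRNA was abundant, with 1554, 614 and 669 CPM in RNA. General stress genes had 6 higher and 17 lower of 34 (median -0.64), and meiosis and sporulation genes 2 higher and 13 lower of 22 (median -1.24). With a minimum count of 50, 22 of the stress genes were tested (median -0.94). Only 7 of the meiosis and sporulation genes were (median -1.28). RTN2 (-5.43), the catalase genes CTT1 (-3.14) and CTA1 (-3.74), the meiotic kinase IME2 (-4.42) and the chromosome axis gene RED1 (-4.46) were among the lowest. The list of glucose-repressed genes took 0.059, 0.059 and 0.0593% of footprints, against 0.316, 0.148 and 0.163% of RNA. These shares are sums over the list, so abundant members weigh most. For mRNAs as scarce as ICL1, antisense or read-through RNA would count as mRNA if strand was not used, and its part was not tested. The highest members of the 3 lists went the other way: GUT2 (1.31), a glycerol-3-phosphate dehydrogenase, GRE3 (2.06), an aldose reductase, and IME1 (1.41), the inducer of meiosis.

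Nutrient transporters held members of both directions. The low- and high-affinity glucose transporters HXT1 (1.36), HXT2 (1.81) and HXT3 (0.77) were higher, HXT3 by a value that changes sign on total counts, while the sensor RGT2 (-2.02 ± 0.25) and the galactose transporter GAL2 (-1.56) were lower. Among amino acid permeases 4 were higher and 9 lower of 20 (median -0.26, -0.58 against cellulose RNA and -0.43 without RNA replicate 2). The general permease GAP1 (-2.24), MUP3 (-2.72) and the sensor SSY1 (-1.74) were lower, and AGP3, with 0.883, 0.314 and 0 CPM in footprints, against 25.8, 14 and 22 CPM in RNA, was the lowest (log2 -5.83 ± 0.57).

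The remaining lists lay nearer the middle. Over all genes 26.7% were called higher and 28.8% lower. Proteasome subunits, which degrade tagged proteins, had 15 higher and 0 lower of 32 (median 0.42, -0.34 on total counts, 0.23 against DynaBeads RNA and 0.83 against cellulose RNA). Translocon, SRP and glycosylation genes of the secretory pathway had 12 higher and 2 lower of 31 (median 0.41, -0.37 on total counts, 0.30 against DynaBeads RNA and 0.75 against cellulose RNA), and the proton pumps 11 higher and 0 lower of 17 (median 0.98, 0.20 on total counts, 0.64 against DynaBeads RNA and 1.11 against cellulose RNA). These lists, like the nuclear RNA polymerases with 12 higher and 1 lower of 31 (median 0.37, -0.40 on total counts, 0.16 against DynaBeads RNA and 0.62 against cellulose RNA) and the nuclear pore with 8 higher and 2 lower of 29 (median 0.28, -0.55 on total counts, 0.43 against DynaBeads RNA and 0.15 against cellulose RNA), held more genes called higher than lower with TMM scaling. For the nuclear pore the share called higher, 27.6%, was close to that of all genes. Histones had 5 higher and 0 lower of 11 (median 0.13, -0.63 on total counts, -0.03 against DynaBeads RNA and 0.43 against cellulose RNA), cyclins and their inhibitors 5 higher and 6 lower of 19 (median 0.12, -0.69 on total counts, 0.25 against DynaBeads RNA and -0.17 against cellulose RNA) and the pheromone response 5 higher and 3 lower of 15 (median 0.00, -0.81 on total counts). DNA replication and repair had 13 higher and 14 lower of 61 (median -0.18, -0.99 on total counts), and the median was -0.021 against DynaBeads RNA and -0.095 without footprint replicate 1. Cyclins and histones thus changed the sign of their medians with the RNA preparation, histones against DynaBeads RNA and cyclins against cellulose RNA. Splicing factors, which remove introns, had more members called lower than higher, with 6 higher and 19 lower of 53 (median -0.24, -1.05 on total counts); without RNA replicate 2 the median was -0.38.

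**Figure D3:**
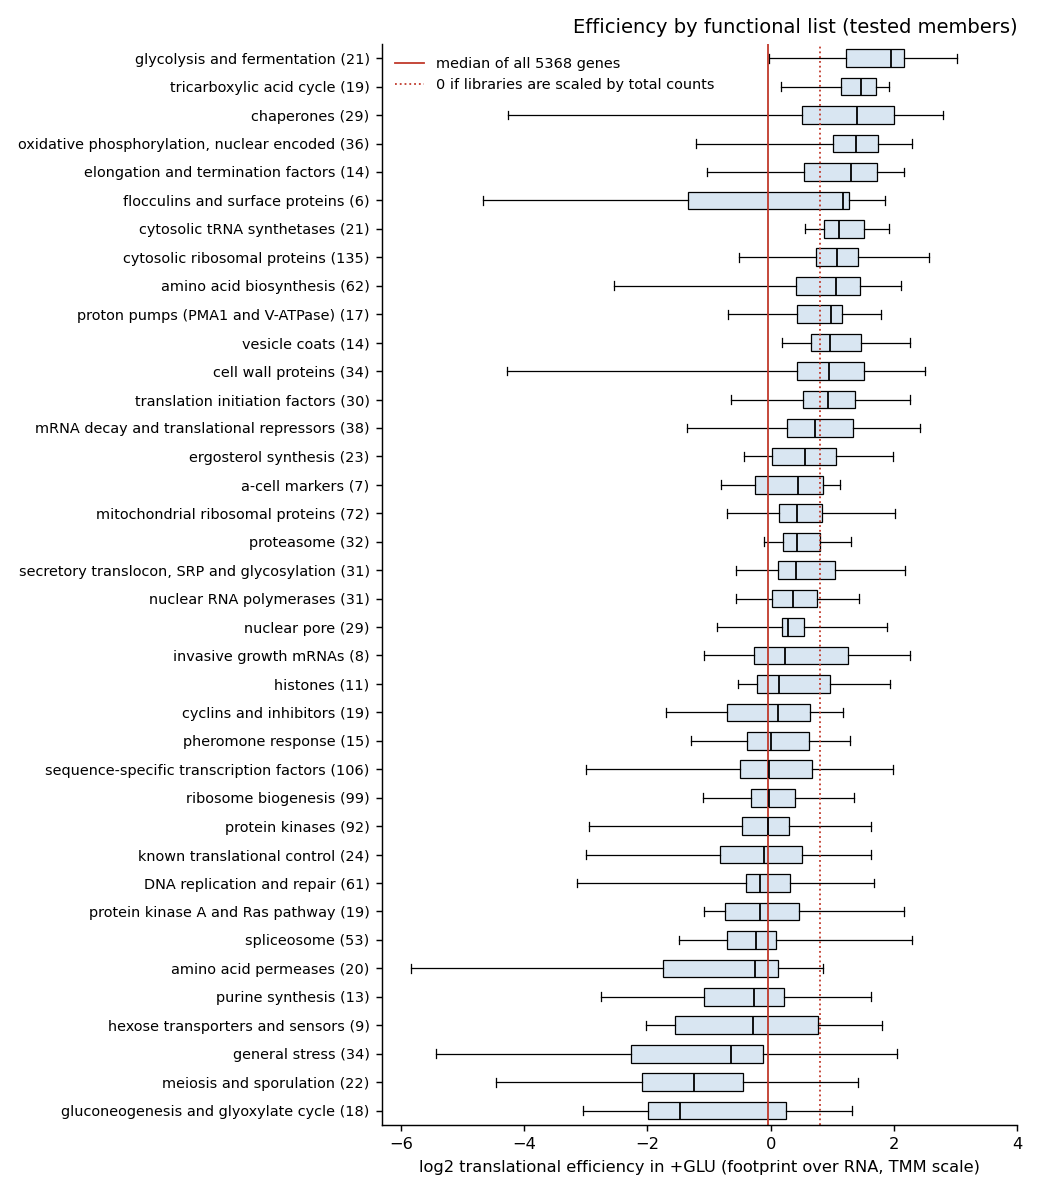
Log2 translational efficiency (horizontal axis) of the tested members of 38 functional lists, number of members in brackets; boxes show quartiles with the median as a line, and whiskers reach the lowest and highest member. Of the lists drawn, glycolysis and fermentation (median 1.94) lies at the top and gluconeogenesis (median -1.47, and 0.019 with a minimum count of 50) at the bottom. The alpha-cell markers, with 2 tested members at a median of -2.18, are not drawn. The solid red line marks the median of all genes and the dotted line the point that becomes 0 on total counts, so lists with medians between 0 and the dotted line change sign there.

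The 12 mRNAs with the highest efficiency, by a rule on call, non-overlap and level, were PDC1, RRG9, CDC19, SSC1, BMH2, SSA2, YOR302W, STI1, TOM7, TDH2, RPS11B and TOS6, at log2 values of 3.02 to 2.55; HBN1, at 3.11, was too scarce for the rule. RRG9, needed for keeping the mitochondrial genome, had 304, 352 and 265 CPM in footprints, against 29.8, 59.1 and 35.9 CPM in RNA (log2 2.90 ± 0.26). BMH2, a 14-3-3 protein, had 762, 938 and 945 CPM in footprints, against 154, 111 and 125 CPM in RNA (log2 2.76 ± 0.21). TOM7, a small subunit of the mitochondrial import pore, had 187, 126 and 163 CPM in footprints, against 22.5, 35.5 and 20.1 CPM in RNA (log2 2.62 ± 0.24). In all 12 the footprint libraries lay above the RNA libraries, as the rule requires. Ranked by footprint density instead, the leading mRNAs included CCW12, RPL39, YDR524C-B, TDH3, PDC1, RPL32, RPL28, RPL29 and RPL10. Of these PDC1, TDH3 and RPL32 passed a log2 efficiency of 2, while RPL28 (0.38 ± 0.32, -0.38 on total counts) was not called and had 6212, 7045 and 6077 CPM in footprints, against 3015, 5901 and 5915 CPM in RNA.

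mRNAs known for translational control held higher, lower and uncalled members. Of 24 examined, 7 were higher and 8 lower (29.2 and 33.3%), close to the 26.7 and 28.8% of all genes. The median was -0.10 and lay between -0.18 without RNA replicate 2 and -0.016 without footprint replicate 2. HAC1, whose unspliced mRNA is held silent by base pairing until the unfolded protein response, had 60.9, 82.5 and 77.9 CPM in footprints, against 692, 464 and 608 CPM in RNA. Its log2 efficiency of -2.99 ± 0.21 was the lowest of the list (edgeR adjusted p = 6.35e-06). GCN4, held back by uORFs while amino acids are plentiful, had 143, 225 and 308 CPM in footprints, against 920.5, 681 and 820.2 CPM in RNA (log2 -1.84 ± 0.27). HOL1, a polyamine transporter with a uORF, had 56.2, 49.1 and 49.3 CPM in footprints, against 166, 113 and 157 CPM in RNA (log2 -1.50 ± 0.18). All 3 had less footprint than RNA in every library. The uORF-bearing PPR1 (-1.59) and the frameshift-dependent antizyme OAZ1 (-1.17) were also lower, as were PET111 (-0.95) and the cyclin gene CLN3 (-0.78). CLN3 lost its call without footprint replicate 1 (log2 -0.62, edgeR adjusted p = 0.0797). SCH9 (1.63), LEU4 (1.55), ALA1 (1.21) and the eIF4G gene TIF4631 (1.17) were higher, and so were ABP140 (0.77), GRS1 (0.76) and CAD1 (0.42), 3 genes whose values turned to -0.04, -0.03 and -0.39 on total counts. CAD1 lost its call without any 1 of 5 libraries, with edgeR adjusted p from 0.0668 to 0.167, all but RNA replicate 1. Not called were ASH1 (-0.24), CBS1 (-0.12), DCD1 (0.02), EST3 (-0.38), HAP4 (-0.10), HEM3 (-0.11), INO2 (0.21), SCO1 (0.07) and YAP1 (0.32).

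The CPA1 transcript could be read at both of its reading frames. YOR302W, the 78-base leader frame whose peptide stalls ribosomes when arginine is plentiful, had 65.6, 49.6 and 88 CPM in footprints, against 17, 5.53 and 6.58 CPM in RNA (log2 2.64 ± 0.38). CPA1 itself, the arginine-regulated carbamoyl phosphate synthetase subunit downstream, had 138, 169.8 and 199 CPM in footprints, against 272, 199.98 and 236 CPM in RNA (log2 -0.48 ± 0.19; edgeR adjusted p = 0.0464). The leader thus stood above its RNA in every library and the main frame below it. For a frame this short the counted length matters. RNA replicate 1 was counted over 26 more bases than the other +GLU libraries and gave the highest RNA value of YOR302W. The leader value was 3.45 against DynaBeads RNA, 1.97 against cellulose RNA and 0.96 with footprints taken without cycloheximide. CPA1 lost its call without footprint replicate 1 (log2 -0.35, edgeR adjusted p = 0.175), without footprint replicate 2 (-0.48, adjusted p = 0.126) and without RNA replicate 3 (-0.51, adjusted p = 0.081).

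Of 8 invasive growth mRNAs described as able to initiate translation internally, 3 were higher and 1 lower in glucose. Over all genes 26.7% were higher and 28.8% lower. PAB1, given above, NCE102, an eisosome protein (1.68 ± 0.22), and GIC1, an effector of the polarity GTPase Cdc42 (1.12 ± 0.26), were higher. GPR1, the glucose receptor, had 38.5, 39.8 and 40.5 CPM in footprints, against 82.4, 83.3 and 85.5 CPM in RNA (log2 -1.08 ± 0.15; edgeR adjusted p = 0.000193), with footprint and RNA groups well apart. FLO8, the activator of FLO11, had 59.7, 64.5 and 72.2 CPM in footprints, against 68.4, 51.2 and 58.9 CPM in RNA (log2 0.13 ± 0.17), and the groups overlapped. BOI1 (0.34), MSN1 (-0.10) and YMR181C (-0.75) were not called either.

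At the bottom of the range lay mRNAs that were present and almost free of footprints. YOL029C had no footprint count in any of the 3 libraries, against 45.4, 62.3 and 67.8 CPM in RNA (1274 counts in all). Taking 3 counts over the group as the floor, its RNA was at least 244-fold higher than its footprints. YIR016W and ISC10, a sporulation gene, had 1 footprint count each, against 1515 and 1258 RNA counts, depth-scaled ratios of RNA to footprint of 871 (exact 95% interval 156 to 34419) and 723 (130 to 28584). YER186C had 3 footprint counts, against 1594 RNA counts, a ratio of 305 (104 to 1483). Intervals and floors cover counting error only. The meiotic telomere gene NDJ1 had 0.588, 0.157 and 0.42 CPM in footprints, against 82.6, 38.4 and 56.3 CPM in RNA, and the iron reductase FRE3, the DNA polymerase gene POL4, HSP30, CNM1 and ALR2 followed at log2 values of -6.43, -5.85, -5.42, -6.57 and -5.33. HSP30, a stress protein of the plasma membrane, ranged widely in RNA, with 143, 21.5 and 44.7 CPM. Its log2 value was -4.32 against DynaBeads RNA and -6.44 against cellulose RNA.

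The 2 abundant members of this end lie just downstream of strongly expressed genes on the same strand. MTC7 had 4.41, 4.86 and 5.46 CPM in footprints, against 1139, 1769 and 1142 CPM in RNA (log2 -8.09 ± 0.31). Its mean RNA density, 4354 RPKM, was close to that of its upstream neighbour HYP2, the gene of eIF5A, at 4476 RPKM. In footprints MTC7 had 9.4 RPKM and HYP2 9078 RPKM. YCR024C-B had 0.883, 1.41 and 1.26 CPM in footprints, against 495, 397 and 428 CPM in RNA (log2 -8.46 ± 0.25), with an RNA density of 2315 RPKM beside 1228 RPKM for its upstream neighbour PMP1, a small regulator of the proton pump. In footprints the pair stood at 3.68 and 4229.9 RPKM. Whether reads from the end of the neighbour's transcript were counted here was not tested. NDJ1 and its downstream neighbour WSC3 were both low in footprints, at 0.291 and 0.862 RPKM, with 76.6 and 47.9 RPKM in RNA.

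Among the genes tested, abundant mRNAs were also the better loaded. To keep a shared library from linking the axes, mRNA level was taken from RNA replicate 1 and efficiency from RNA replicates 2 and 3. The median log2 efficiency was -0.62 in the lowest decile of RNA level and 0.70 in the highest, with the 8 deciles between at -0.23 to 0.15. With the libraries swapped, the ends were -0.95 and 1.27. Of the 537 mRNAs in the top decile by mean RNA, 223 were high-efficiency and 18 low-efficiency. Of the 1074 with the least RNA, 51 were high-efficiency and 347 low-efficiency. Over all genes 13.9% were high-efficiency and 16.5% low-efficiency. In these counts level and class share the same RNA libraries, so the axes are linked. The groups are described, not tested, since genes are not replicates.

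The exceptions were named after their values were seen. Their level and efficiency rest on the same RNA libraries, so error in RNA alone can place a gene among them. Abundant but poorly loaded mRNAs included HAC1, GCN4, CMK2, CIT2, the mitochondrial carrier gene DIC1 (-1.88), the folate and one-carbon genes MTD1 (-2.38) and SHM2 (-1.46), ADE13 and ADE1 of purine synthesis, and the purine permease FCY2 (-1.05). CIT2 had a mean RNA density of 948 RPKM and a footprint density of 77.8 RPKM. Scarce but well-loaded mRNAs included the nitroreductase gene HBN1 (3.11), PDC5 (1.94), hexokinase HXK1 (1.35), TIR1, MSN4, IME1, the RNA-binding protein genes PUF2 and PUF3 (1.55 and 1.51) and FLO10. HBN1 had 16.8, 18.3 and 15.3 CPM in footprints, against 1.75, 2.04 and 2.3 CPM in RNA. EFT1 also falls here, but its level rests on the few bases that tell it from EFT2.

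By coding length, the shortest decile, with a median of 342 bases, had a median log2 efficiency of 0.50 and the next shortest 0.20. The other 8 deciles lay between -0.24 and -0.01, with no order among them. The values of the 2 shortest deciles rest on the RNA preparation, and RNA replicate 1 was counted over 26 more bases of each gene. They were 0.30 and 0.059 against DynaBeads RNA, 0.88 and 0.42 against cellulose RNA, and 0.35 and 0.13 with footprints taken without cycloheximide. Deciles of the share of preferred codons, the codon of each amino acid most used by cytosolic ribosomal protein genes, had median efficiencies from -0.58 in the lowest to 1.14 in the highest, each decile above the one before. In the highest decile 74.7% of genes were called higher, and in the lowest 6.32%. With ribosomal protein genes left out the ends were -0.59 and 1.08. Since abundant mRNAs use preferred codons, the relation was also read within 4 classes of RNA level. In the most abundant class the medians over 4 classes of rising codon share were -0.48, -0.28, -0.10 and 0.70, and in the least abundant class -0.49, -0.30, -0.14 and -0.25.

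**Figure D4:**
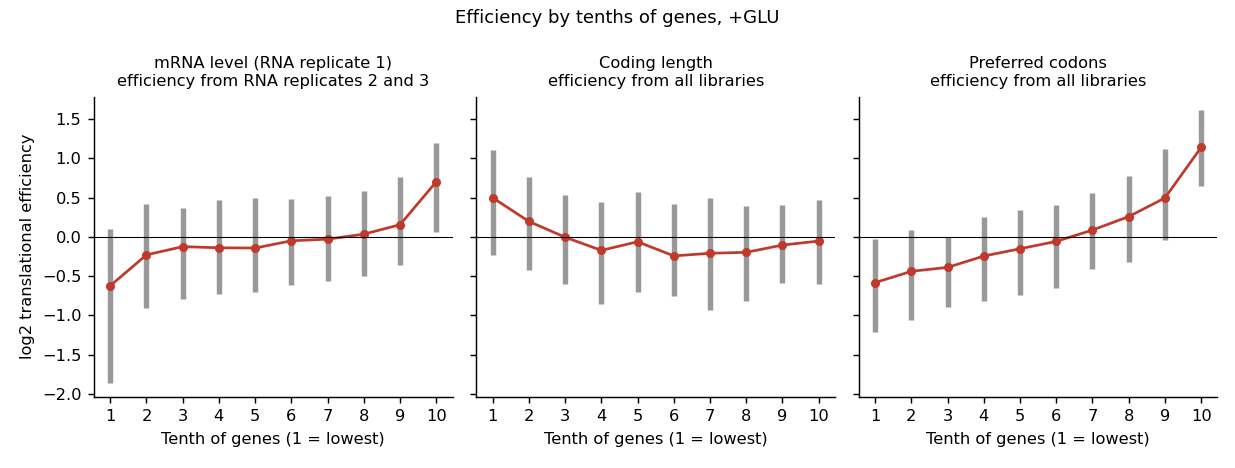
Median log2 translational efficiency (red points) and quartile range (grey bars) of +GLU genes in 10 equal groups ordered by mRNA level, coding length and share of preferred codons. The medians run from -0.62 to 0.70 with mRNA level, from 0.50 in the shortest genes to -0.05 in the longest, and from -0.58 to 1.14 with preferred codons; on total counts the median of all genes moves by -0.80.

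Upstream ATGs were less frequent in the high-efficiency than in the low-efficiency class, as a description with no test. An ATG lay within the 50 bases upstream of the start codon, in any frame and on the gene's own strand, in 45 of 744 high-efficiency genes (6.05%), in 302 of 881 low-efficiency genes (34.3%) and in 973 of 5362 genes overall (18.1%). The median log2 efficiency was -0.47 for genes with such an ATG and 0.05 for those without. Among the more abundant genes, 364 with and 2319 without such an ATG, the medians were -0.21 and 0.29. Genes with an A at position -3, as in PDC1 and CDC19, made up 71.5% of the high-efficiency class, 53.5% of the low-efficiency class and 61.5% of all. Their median was 0.03, against -0.09 for G, -0.24 for T and -0.25 for C. Among the more abundant genes the medians were 0.31 for A, 0.07 for G, -0.01 for T and -0.07 for C. Among the less abundant genes A and G were alike, both at -0.26, with T at -0.37 and C at -0.38. These are descriptions of the reference sequence. Transcript starts were not analysed here, so an ATG in this window need not lie in the mRNA.

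Subunits of stable complexes are needed in fixed proportion, and footprint densities were on average more even across subunits than RNA densities in 13 of the 14 complexes examined. For the 14 subunits of the 20S proteasome core, the SD across subunits of log2 RPKM was 0.173, 0.119 and 0.124 in the 3 footprint libraries, against 0.275, 0.484 and 0.606 in the 3 RNA libraries. Mean footprint densities of these subunits lay within 1.3-fold of each other (372 to 483 RPKM), while RNA densities spanned 2.15-fold (324 to 696 RPKM). For the ATPase ring of the proteasome the SDs were 0.193, 0.113 and 0.122 in footprints, against 0.288, 0.457 and 0.417 in RNA. For eIF2 they were 0.231, 0.258 and 0.291 in footprints, against 0.406, 1.26 and 0.887 in RNA. In 6 complexes all footprint libraries were more even than all RNA libraries (20S core, ATPase ring, eIF2, eIF3, replication factor C and exocyst), in 7 the libraries overlapped, and in the signal peptidase footprints were less even (0.585, 0.616 and 0.639, against 0.243, 0.47 and 0.32). By the mean SD over libraries, the difference was slight for the TRiC chaperonin (0.205 in footprints, 0.215 in RNA) and the MCM helicase (0.308 and 0.310). RNA replicate 1 was the most even RNA library in 12 complexes, and 12 complexes had footprints more even than both DynaBeads libraries. No test was made, and the subunits share the libraries' depth and counting.

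**Figure D5:**
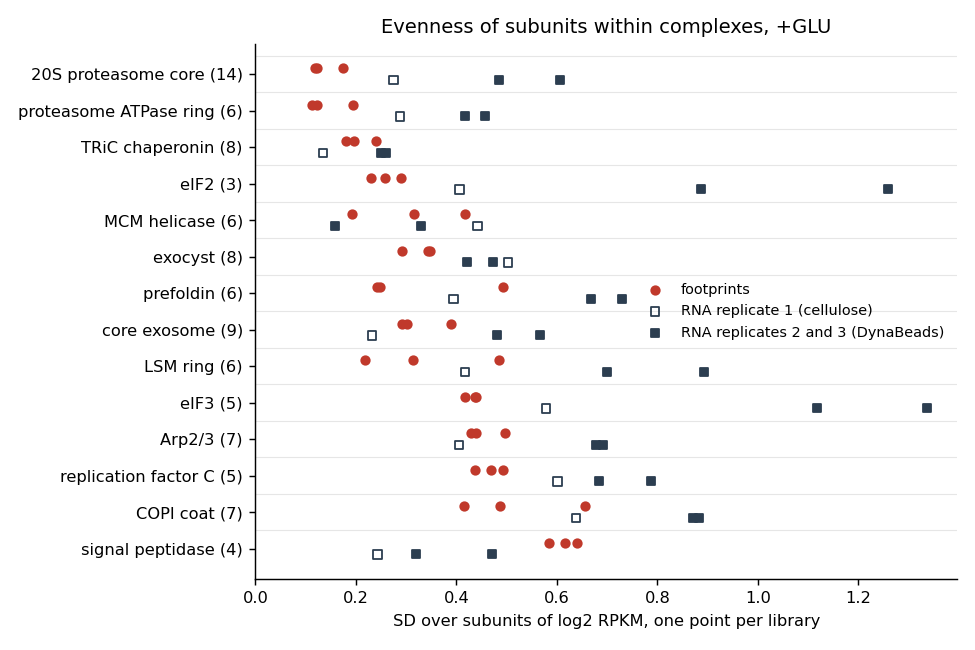
SD across subunits of log2 RPKM (horizontal axis), 1 point per +GLU library, for 14 complexes with the number of subunits in brackets; red circles are footprint libraries, open squares RNA replicate 1 and filled squares RNA replicates 2 and 3. In the 20S proteasome core footprints lie at 0.12 to 0.17, left of all RNA libraries, and in the signal peptidase they lie right of all.

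Efficiency was then compared between growth states. Of the RNA libraries 1 of 3 in +GLU and all 3 in -GLU were selected on cellulose, so selection method moves with growth state, and its part in the differences was not tested. Over the 12 cycloheximide libraries of both states, the efficiency difference of +GLU minus -GLU passed the test (edgeR interaction, adjusted p under 0.05) in 756 of 5509 genes (13.7%), 247 higher (4.48%) and 509 lower (9.24%) with glucose. These counts moved with the settings, from 76 to 609 and from 141 to 571 as single libraries were left out, the lowest without +GLU footprint replicate 2 and -GLU RNA replicate 2. The higher count moved by over 1.5 times without +GLU footprint replicate 1 (158), 2 (76) or 3 (97), +GLU RNA replicate 1 (522) or 3 (92), -GLU footprint replicate 2 (143) or -GLU RNA replicate 3 (609). The lower count did so without +GLU footprint replicate 1 (335), 2 (197) or 3 (277), +GLU RNA replicate 2 (206) or 3 (265), or -GLU RNA replicate 1 (223) or 2 (141). The -GLU replicate 3 libraries stood apart: the glucose-exhaustion markers summed to 90938.5, 50578.5 and 14502 CPM in the 3 -GLU footprint libraries and 60874, 44933 and 17259 CPM in the 3 -GLU RNA libraries. PCK1, a gluconeogenic enzyme among them, had 25899.5, 10300.3 and 151 CPM in -GLU footprints. Both replicate 3 libraries were also counted over 26 more bases of each gene than the other -GLU libraries. The interaction fit had no term for counted length. Without both -GLU replicate 3 libraries, an alternative chosen after seeing the data, 557 genes were higher and 821 lower. Glycolysis had 5 higher of 21 (9 without those libraries), with a median efficiency of 1.96 with glucose and 0.06 without glucose (0.37 without those libraries). tRNA synthetases had 7 higher of 21 (1.13 with glucose and 0.28 without), 9 of them higher when the replicate 3 libraries were left out (0.43 without glucose). General stress genes had 12 lower of 36 (-0.60 with glucose and 0.91 without; 24 lower and 1 higher with the replicate 3 libraries left out), and mitochondrial ribosomal proteins 29 lower of 72 (0.43 with glucose, -0.35 on total counts, and 1.52 without; 60 lower with the replicate 3 libraries left out). CDC19 stood at 2.84 with glucose and -1.47 without (-1.31 with the replicate 3 libraries left out). GCN4 and HOL1, at -1.83 and -1.49 with glucose and -2.76 and -1.42 without, gave differences of 0.93 ± 0.53 and -0.06 ± 0.29 (SE) that did not pass the test (edgeR adjusted p = 0.25 and 0.899). With the replicate 3 libraries left out, the GCN4 difference was 1.37 ± 0.41 (SE) and passed the test (edgeR adjusted p = 0.0271), and that of HOL1, -0.0072 ± 0.28, did not (adjusted p = 0.989).

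The +GLU footprint library taken without cycloheximide gave its own efficiencies, computed against the same 3 RNA libraries and therefore not independent of the values above. It is 1 library of 30575562 counts, with no replicate, and its cells were collected by filtration and cryomilled, so drug and harvest cannot be told apart. Over the members tested in both, 27 of 39 list medians differed from those with the drug by at least the SD between replicate libraries, 17 higher and 10 lower without the drug. That SD pairs footprint and RNA libraries by number, though their pairing was not shown. It includes RNA spread that both sides share, so the count does not measure how well footprints repeat. The medians without and with the drug were 2.47 and 1.94 for glycolysis, 1.22 and 1.07 for cytosolic ribosomal proteins and 1.72 and 1.47 for the tricarboxylic acid cycle. Gluconeogenesis stood at -1.89 and -1.47 over the 18 members of the main comparison; over all members tested with the drug-free library the value was -1.47. Medians changed sign in 6 lists. Ribosome biogenesis stood at 0.35 without the drug and -0.03 with it, amino acid permeases at 0.25 and -0.26, cyclins at -0.37 and 0.12, and the pheromone response at -0.83 and 0.00. Hexose transporters and sensors stood at 0.53 and -0.28 over 9 members, and at -0.76 without the drug over all members tested with that library. HAC1 stood at -2.95 without the drug and -2.99 with it, and GCN4 at -2.67 and -1.84. The a-cell markers, the last of these 6 lists, had a median of -1.29 without the drug and 0.44 with it, and with the drug -0.36 on total counts.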

How the data were processed

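Footprint and poly(A) RNA counts per gene, of fragments near 28 nt, were deposited by the authors; no source used here gives the aligner, counter, build or strand use. The columns of -GLU RNA replicates 1 and 2 hold expected counts in the sense of not all being whole: per the deposited table, only row YPR203W is not, and it was left out. RPKM values, also deposited by the authors, served for levels per length. Their counted length is, for most genes, the coding length less 24 bases. It is the coding length plus 2 in +GLU RNA replicate 1 and in both -GLU replicate 3 libraries. Of 5703 genes, 5698 identifiers were paired with RefSeq R64 names. Efficiency was footprints over RNA in edgeR 4.0.16 (R 4.3.3): TMM scaling, filterByExpr with a minimum count of 10, quasi-likelihood test over the 6 +GLU libraries, Benjamini-Hochberg adjusted p under 0.05. The growth-state difference was an interaction over 12 libraries, and the library without cycloheximide was set against the same RNA. The method was tested on simulated data with 200 changed genes. The interval level was 95%.

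Members and lists were chosen with earlier results of these data known. The genes named were the 12 highest and 12 lowest among those called, 2-fold changed, not overlapping, with a mean of at least 20 CPM and no overlapping coding sequence, then the 10 with the densest footprints, all of 2 lists, and the extremes of each other list. Other members are named to describe their lists. Some genes are not reported here. Alternatives were other scalings, filters, DESeq2 1.42.0, a replicate block, each RNA preparation alone each library left out and, added after seeing the data, both -GLU replicate 3 libraries left out. Depth ran from 2423486 to 12560502 counts in the 6 +GLU libraries. Reads carry no molecular identifiers, so intervals cover counting error only.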

Additional observations from a re-analysis of the deposited data

Results flagged for a closer look

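Of the 132 genes named by rule, 34 differed in efficiency between growth states by the edgeR interaction test (adjusted p under 0.05), 14 higher and 20 lower with glucose. Over all genes tested, 756 of 5509 did so (13.7%). Many of the 132 were picked as extremes of efficiency in the same +GLU libraries, which by itself favours such differences. Values in brackets are the log2 efficiency in +GLU minus that in -GLU cells, and a whole-library shift between states would move them together. With both -GLU replicate 3 libraries left out, where glucose-exhaustion markers were lowest among -GLU libraries, 33 of the 34 kept sign and call; NDJ1 did not pass (-2.58, edgeR adjusted p = 0.096). That fit reused the same +GLU libraries, so it does not remove the effect of picking. No explanation was tested.

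Genes of glycolysis, amino acid metabolism and translation were among those higher with glucose: CDC19 (4.31), PDC1 (3.00), ILV6 (1.84), PAB1 (2.20), TEF4 (2.10) and GUS1 (1.32). CDC19 stood at 2.84 with glucose and -1.47 without. The others higher with glucose were TIR1 (4.07), AGA1 (2.25), AGA2 (1.26), SEC31 (2.04), RRG9 (1.62), SRV2 (1.47), NSP1 (1.26) and DHH1 (1.15). TIR1, a cell wall mannoprotein, stood at 2.54 with glucose and -1.53 without.

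Lower with glucose were the glucose-repressed or stress genes ICL1 (-3.60) and RTN2 (-5.74), metabolic and transport genes ARO9 (-2.56), ADE17 (-3.01) and AGP3 (-2.58), and CMK2 (-2.39). ICL1 stood at -3.06 with glucose and 0.53 without. ADE17 stood at -2.74 with glucose and 0.28 without. Among mRNAs nearly free of footprints with glucose were YOL029C (-7.94), YIR016W (-7.74), YER186C (-4.57), NDJ1 (-4.79), POL4 (-3.64), MTC7 (-3.31) and YCR024C-B (-3.02); the values of YOL029C, YIR016W and YER186C rest on 0 to 3 footprint counts with glucose and are fitted values, not bounds. The rest were SCO1 (-0.90), CBS1 (-1.21), OAZ1 (-1.34), YMR181C (-2.53), SPC2 (-1.25), HHT1 (-2.13) and SAG1 (-2.89). OAZ1, the antizyme that needs a frameshift, stood at -1.15 with glucose and 0.18 without.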

How the results depend on the processing

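Counts of calls kept within 1.5 times under size factors of DESeq2, no filter, a minimum count of 50, the DESeq2 test, the counted length, all 4 groups in the fit, no overlapping genes and summed copies, with these exceptions. On total counts 414 genes were higher and 3301 lower (129 and 2296 by at least 2-fold), and without cycloheximide 1013 were lower. For the +GLU minus -GLU difference, total counts gave 137 higher and 769 lower, DESeq2 525 higher, and leaving out both -GLU replicate 3 libraries, chosen after seeing the data, 557 higher and 821 lower. Leaving out 1 library gave 1131 to 1634 higher and 1188 to 1748 lower (698 to 755 and 847 to 964 by 2-fold), and for the difference 76 to 609 and 141 to 571. The replicate block gave 1509 higher and 1558 lower, and for the difference 610 and 821. Replicate numbers were not shown to pair libraries: same-numbered deviations correlated at 0.120, 0.180 and 0.0961, each footprint library best with its own number.

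Named genes that changed sign, mostly uncalled ones near 0, had these log2 values. On total counts: RPL28 -0.38, SCO1 -0.73, GRS1 -0.027, INO2 -0.60, CAD1 -0.39, DCD1 -0.77, YAP1 -0.50, ABP140 -0.043, BOI1 -0.47, FLO8 -0.69, HTS1 -0.21, CIT1 -0.65, ARF2 -0.57 and STE3 -0.83. On cellulose RNA: HEM3 0.13, INO2 -0.050, FLO8 -0.089, RPS12 0.30, CIT1 -0.25, PUP3 0.81 and STE3 -0.56. Without cycloheximide: INO2 -0.46, DCD1 -0.065, HAP4 0.54, FLO8 -0.32, TDH1 0.34 and STE3 -0.86. With a minimum count of 50: DCD1 -0.0068 and STE3 -0.030. TDH1 was 0.011 with DESeq2, 0.071 with the block and 0.0080 with 4 groups. With 1 library left out the ranges were SCO1 -0.053 to 0.13, CBS1 -0.32 to 0.079, DCD1 -0.068 to 0.11, HAP4 -0.25 to 0.048, FLO8 -0.00030 to 0.22, TDH1 -0.28 to 0.48, PUP3 -0.45 to 0.077, ARF2 -0.16 to 0.45, STE3 -0.21 to 0.49. The causes were not tested. TDH3 and PMA1 lost their calls with 4 groups (adjusted p = 0.0664 and 0.0861). Depth limits the near-zero genes.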
